A study of Mus musculus with 40 samples.

Results

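The genes described here were the cholinergic and motor neuron genes of the mouse, a set of 8 members chosen by name: Chat, Slc18a3, Slc5a7, Ache, Isl1, Isl2, Mnx1 and Prph. All 8 were found among the 40213 gene symbols of the deposited tables. The data were mRNA sequencing libraries from the midbrain and the spinal cord of male C57BL/6N mice aged 8 weeks, a model of the pain that accompanies Parkinson's disease, with 5 treatment groups of 4 libraries in each tissue and 40 libraries in all. Con mice received saline at GB34, an acupuncture point of the leg, and no MPTP, a toxin of dopaminergic neurons. MPTP-Veh mice received MPTP at 20 mg/kg in 4 intraperitoneal injections spaced 2 h apart, followed by saline at GB34. MPTP-SU mice received the same MPTP and then 4 injections of SUEHP, a herbal pharmacopuncture extract, at GB34. MPTP-SU+S mice received MPTP, SUEHP and SR141714A (as the labels spell it), a CB1 antagonist, at 3 mg/kg, and MPTP-SU+T mice received MPTP, SUEHP and T0070907, an inhibitor of PPARγ, at 5 mg/kg. MPTP is given to the whole animal and no group received SUEHP, SR141714A or T0070907 without MPTP. The labels number the replicates of a group without saying that each was 1 animal, so the p-values measure the spread between these libraries only.

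Cholinergic neurons make acetylcholine from choline with choline acetyltransferase (Chat), load it into vesicles with the vesicular acetylcholine transporter (Slc18a3) and recover choline with the high-affinity choline transporter (Slc5a7), while acetylcholinesterase (Ache) breaks the transmitter down and is also made by neurons that are not cholinergic. Somatic motor neurons of the spinal cord are the best known cholinergic neurons, and the midbrain holds others in the oculomotor and trochlear nuclei and near the pons. Isl1, Isl2 and Mnx1 encode homeodomain transcription factors that specify spinal motor neurons, Isl1 being used by several other neuron types as well, and Prph encodes peripherin, an intermediate filament of neurons with axons in peripheral nerves.

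Chat and Slc18a3 form 1 locus, in which Slc18a3 lies within the first intron of Chat, and the starts of the RefSeq genes lay 1059 bases apart on the same strand. Promoter windows from 250 bases before to 50 bases after the start were taken from RefSeq on GRCm38.p6 (the deposited counts were made on GRCm39) and were found for all 8 members. The windows of the 3 genes of acetylcholine synthesis and transport and of Isl1 are shown because the levels of the former moved together across midbrain libraries and those of Isl1 did not move with them. Capitals mark matches on either strand to 5 motifs. These were the E-box CAGCTG, the box CCAAT bound by the factor NF-Y, the GC box GGGCGG bound by Sp factors, the core promoter motif TATAAA and the homeodomain motif TAATTA. The windows are chr14:32465860-32466159 for Chat, chr14:32464801-32465100 for Slc18a3, chr17:54298985-54299284 for Slc5a7 and chr13:116309639-116309938 for Isl1, each on the minus strand and read 5′ to 3′.
Chat: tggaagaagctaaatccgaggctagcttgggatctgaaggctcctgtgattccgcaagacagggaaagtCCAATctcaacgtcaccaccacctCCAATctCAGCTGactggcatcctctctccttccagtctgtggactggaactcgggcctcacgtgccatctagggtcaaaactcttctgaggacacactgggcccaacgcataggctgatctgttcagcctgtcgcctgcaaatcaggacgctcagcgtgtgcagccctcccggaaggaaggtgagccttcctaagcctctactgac
Slc18a3: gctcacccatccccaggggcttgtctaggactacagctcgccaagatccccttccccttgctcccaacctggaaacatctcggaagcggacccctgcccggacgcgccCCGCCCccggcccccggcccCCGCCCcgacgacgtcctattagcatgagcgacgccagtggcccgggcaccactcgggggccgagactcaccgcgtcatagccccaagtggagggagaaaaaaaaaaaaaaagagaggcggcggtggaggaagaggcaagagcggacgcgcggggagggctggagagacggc
Slc5a7: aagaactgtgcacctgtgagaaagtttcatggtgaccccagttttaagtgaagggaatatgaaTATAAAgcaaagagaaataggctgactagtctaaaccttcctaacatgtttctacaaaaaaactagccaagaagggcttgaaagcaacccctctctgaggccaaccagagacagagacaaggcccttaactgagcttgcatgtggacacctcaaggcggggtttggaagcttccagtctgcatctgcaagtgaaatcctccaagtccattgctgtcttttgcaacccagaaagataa
Isl1: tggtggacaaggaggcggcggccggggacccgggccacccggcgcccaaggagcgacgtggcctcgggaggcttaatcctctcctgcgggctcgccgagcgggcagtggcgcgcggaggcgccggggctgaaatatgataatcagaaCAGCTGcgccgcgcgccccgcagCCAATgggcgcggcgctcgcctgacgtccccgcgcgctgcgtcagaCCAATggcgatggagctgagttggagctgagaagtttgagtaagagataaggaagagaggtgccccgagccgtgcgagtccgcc

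The window of Chat held CAGCTG at -150 and CCAAT at -181 and -157, counted from the start. That of Slc18a3 held GGGCGG on the other strand at -142 and -122. The window of Slc5a7 held only TATAAA, at -187, and that of Isl1 held CAGCTG at -103 and CCAAT at -80 and -34. The 3 genes of synthesis and transport thus shared no motif of the 5 searched, and none of the 4 windows held TAATTA. Among all 27025 windows of this length, CAGCTG was found in 16.1%, CCAAT in 37.9%, GGGCGG in 35.9%, TATAAA in 14.2% and TAATTA in 5.31%. The windows also differed in base composition. G and C made up 55.7% of the bases for Chat, 67.0% for Slc18a3, 44.7% for Slc5a7 and 69.0% for Isl1, against a median of 52.7% over all windows. CpG dinucleotides numbered 10, 27, 1 and 37 in the same order, against a median of 7.

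The libraries held 11958200 to 16639823 counts in the midbrain and 14642808 to 16615378 in the spinal cord. Tissue labels matched their markers: the transcription factor gene Hoxc8 reached at most 0.156 CPM (counts per 1000000 counts of a library, scaled between libraries) in the midbrain and at least 54.4 CPM in the spinal cord, and the dopamine transporter gene Slc6a3 reached 17.7 to 129 CPM and at most 0.302 CPM, respectively. The midbrain libraries were less alike, with a common dispersion of 0.0512 against 0.0071 in the spinal cord. Their content of neighbouring regions varied: Tph2, which marks serotonergic neurons of the raphe, ranged from 0.507 to 109 CPM and Pmch, a hypothalamic peptide gene, from 0.255 to 275 CPM. MPTP-Veh midbrain replicate 4 stood apart from the rest, with 1.35% of its counts from mitochondrially encoded genes against 9.92 to 17.5% in the other midbrain libraries and a rank correlation of 0.898 with the median midbrain library against 0.988 or more. Results that rest on it are given with and without it. In bulk tissue, fewer cells of a type and less RNA per cell cannot be told apart.

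To find where the members were expressed, Con spinal cord was compared with Con midbrain by edgeR's quasi-likelihood test, with p-values adjusted over all 17426 genes and calls made at an adjusted p under 0.05 and a fold change over 1.5. Isl2 and Mnx1 passed the filter on low counts only through the spinal cord, which fixed their direction, so they are described apart. Of the other 6 members 4 were called, all higher in the spinal cord, against 16.4% of all genes called in either direction. Chat was at 4.15, 0.24, 1.14 and 2.21 CPM in the Con midbrain and at 18.8, 23.6, 24.6 and 21.6 CPM in the Con spinal cord. The lowest cord library thus lay above the highest midbrain library, and the log2 fold change was 3.52 (SE 0.56, adjusted p = 5.59e-06). Slc18a3 was at 3.90, 0.12, 0.634 and 1.35 CPM against 43.3, 35.9, 45.6 and 39.5 CPM, a log2 fold change of 4.78 (SE 0.68). Slc5a7 was at 11.2, 1.26, 3.68 and 5.09 CPM against 59.6, 91.9, 77.2 and 77.1 CPM, a log2 fold change of 3.85 (SE 0.55). Prph was at 4.41 to 6.26 CPM against 52.8 to 67.8 CPM, higher in the cord by 3.52 on the log2 scale (SE 0.30). The groups did not overlap for any of these 4 genes, which alone fixes the exact two-sided permutation p of 4 against 4 libraries at its smallest value, 0.0286. This separation was not set against that of all genes. The median log2 fold change was 3.52 over the 6 members tested in both tissues and -0.02 over all genes.

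The transcription factors divided. Mnx1 was found in none of the 20 midbrain libraries and in every spinal cord library, at 0.242 to 1.38 CPM. Against a floor of 3 counts over the group, its level was at least 14.7-fold higher in the Con spinal cord and, over all libraries, at least 69.98-fold higher. Isl2 gave 11 counts in 7 midbrain libraries, none above 0.181 CPM, and 1.72 to 3.70 CPM in the spinal cord, a ratio of 43.7 in the Con libraries with a 95% counting interval of 16.8 to 162. Isl1, by contrast, was at 0.575, 3.29, 10.02 and 1.72 CPM in the Con midbrain and at 2.94, 3.39, 3.80 and 2.70 CPM in the Con spinal cord. These ranges overlapped, and the log2 difference of -0.28 (SE 0.51, adjusted p = 0.734) was not called. Ache was the other member not called, with 116 to 152 CPM in the Con midbrain and 124 to 159.7 CPM in the Con spinal cord, a log2 difference of 0.10 (95% interval -0.22 to 0.42). Over the 5 treatments together 5 of these 6 members were called, again all higher in the cord, against 22% of all genes. The addition was Isl1, with a log2 difference of 0.65 (SE 0.25, adjusted p = 0.0210). Its fold change fell below 1.5 without Con midbrain replicate 1 (log2 0.58, adjusted p = 0.0227) or without MPTP-SU+T midbrain replicate 3 (log2 0.58, adjusted p = 0.0238), and its adjusted p ranged from 0.000783 to 0.0368 over all libraries left out in turn.

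**Figure D1:**
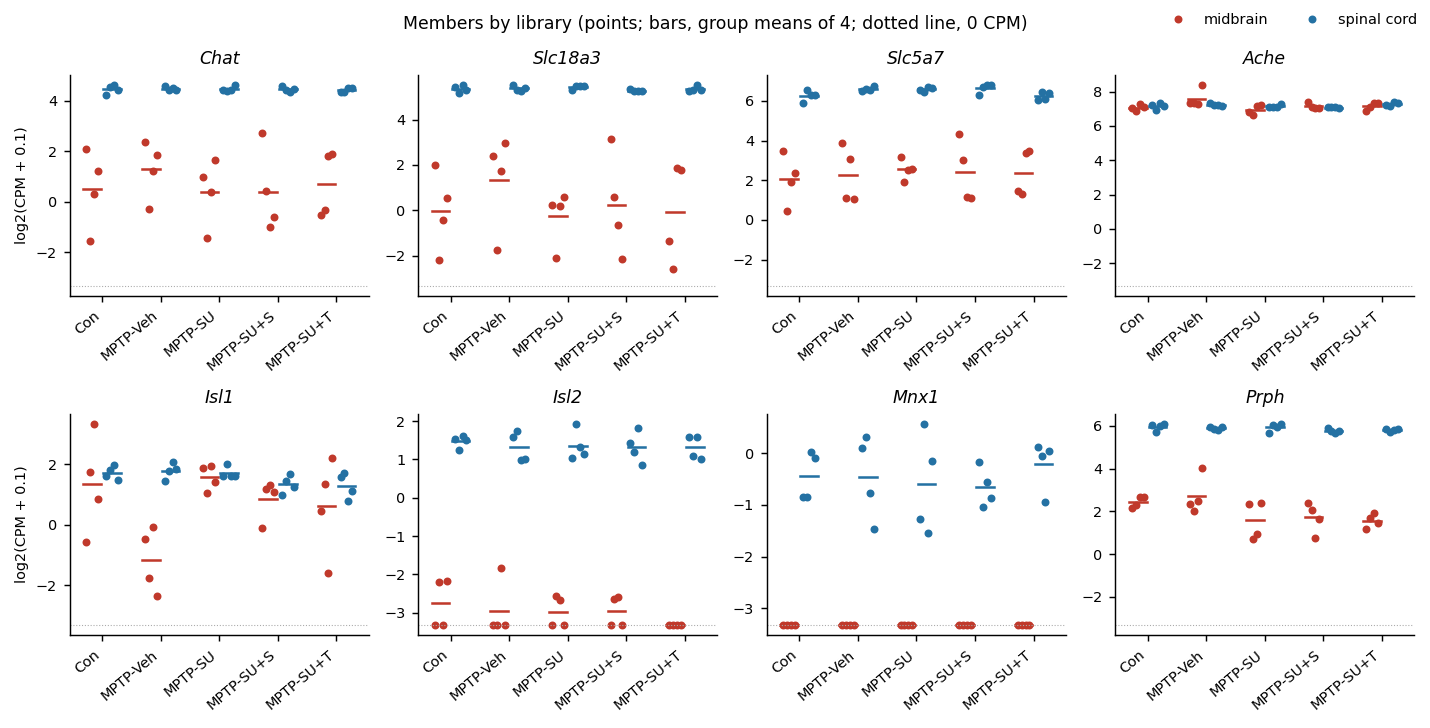
Levels of the 8 members in each library (points), as log2 of CPM plus 0.1, by treatment group and tissue, with the mean of each group of 4 on that scale (bars) and the position of 0 CPM (dotted line). Chat, Slc18a3, Slc5a7, Isl2, Mnx1 and Prph lay higher in every spinal cord library than in any midbrain library, whereas Ache and Isl1 overlapped between the tissues.

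Levels were compared between genes only per kilobase of the longest coding transcript. In the spinal cord Ache came first with 66.5 CPM per kilobase (SD 5.26, n = 20), followed by Prph with 31.4 (SD 2.92). Slc5a7 and Slc18a3 were next with 17.2 (SD 2.87) and 16.996 (SD 1.35), a difference smaller than their spread, and both lay above Chat with 7.71 (SD 0.56). The transcription factors were the lowest, Isl2 at 1.36 (SD 0.31) and Isl1 at 1.17 (SD 0.26) overlapping, and Mnx1 at 0.304 (SD 0.14). In the midbrain the level of Ache was 68.8 CPM per kilobase (SD 22.1) and that of Prph 2.45 (SD 1.69). Slc5a7, Slc18a3, Isl1 and Chat followed at 1.25, 0.910, 0.897 and 0.751 CPM per kilobase, and the SD of each, 0.625 to 1.05, exceeded the gaps between them. Salmon assigns reads to transcripts, and how reads of the overlapping Chat and Slc18a3 models were divided cannot be seen in gene counts. Ache overlaps Gm42456 and the microRNA gene Mir8116 in the annotation.

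In the spinal cord no member was called between groups by edgeR, and the members except Slc5a7 are given first. Chat ranged from 18.8 to 25.0 CPM over the 20 libraries, with group means between 21.5 and 22.4 CPM and a coefficient of variation of 7.30%. Slc18a3 ranged from 35.9 to 46.3 CPM, Ache from 124 to 169.6 CPM and Prph from 49.8 to 67.8 CPM, with coefficients of variation of 7.92, 7.91 and 9.32%. The 3 transcription factors, at few counts, varied more, by 22.3% for Isl1, 22.5% for Isl2 and 46.8% for Mnx1. None of the 8 members was called in MPTP-Veh against Con, where 0% of all genes were called, and 1 (Slc5a7) had an unadjusted p under 0.05, as 12.8% of all genes had. None was called in MPTP-SU against MPTP-Veh (0% of all genes, no member and 3.81% of all genes with an unadjusted p under 0.05), in MPTP-SU+S against MPTP-SU (0% of all genes, 2 members, Slc18a3 and Prph, and 5.49% of all genes under 0.05) or in MPTP-SU+T against MPTP-SU (0.024% of all genes, 2 members, Slc5a7 and Ache, and 12.1% of all genes under 0.05). DESeq2 and limma-voom called no member in any of these 4 comparisons either. The intervals were narrow for the abundant genes. The 95% interval of the log2 difference between MPTP-Veh and Con ran from -0.15 to 0.17 for Chat, from -0.15 to 0.15 for Slc18a3 and from -0.24 to 0.07 for Prph, whereas that of Mnx1 ran from -0.86 to 0.99.

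Slc5a7 was the member that varied most between groups among those above 10 CPM in the cord. Con libraries held 59.6, 91.9, 77.2 and 77.1 CPM, MPTP-Veh libraries 89.0, 96.3, 93.0 and 106 CPM, MPTP-SU libraries 93.2, 86.4, 102 and 101 CPM, MPTP-SU+S libraries 79.6, 102, 113 and 111 CPM, and MPTP-SU+T libraries 64.9, 85.8, 68.9 and 82.8 CPM. Con and MPTP-SU+T had the lower means, Con overlapped the other groups through its replicate 2, and every MPTP-SU+T library lay below every MPTP-Veh and MPTP-SU library. The log2 difference was 0.32 (SE 0.11, adjusted p = 0.250) for MPTP-Veh against Con and -0.33 (SE 0.11, adjusted p = 0.235) for MPTP-SU+T against MPTP-SU. The latter groups did not overlap, which alone fixes the exact two-sided permutation p at 0.0286, the smallest that 4 against 4 allows. Across the 5 groups the F test of any difference called none of the 8 members (adjusted p = 0.106 for Slc5a7), against 0.15% of all genes, with 2 members, Slc5a7 and Ache, and 16.8% of all genes at an unadjusted p under 0.05. The coefficient of variation of Slc5a7 was 16.7%, with group means between 75.6 and 101.3 CPM. DESeq2 and limma-voom each called 1 member, Slc5a7, and so did the fit without MPTP-SU+S replicate 1 (adjusted p = 0.0373). The fit without Con replicate 2 called 2 members, Slc5a7 (adjusted p = 0.0120) and Ache (adjusted p = 0.0405). Over all alternatives the adjusted p of Slc5a7 ranged from 0.00207 to 0.245.

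The level of Slc5a7 moved with the share of mitochondrially encoded counts in the cord libraries. Pearson's r was 0.93 and Spearman's rho 0.96 over 20 libraries (permutation p = 1e-05 for each, the smallest that the permutations can give, and 0.00116 adjusted over 116 relations computed in this tissue). The r was 0.93 without the 2 libraries farthest from the median of Slc5a7, and 0.89 once group means were removed. The share was 12.4 to 14.2% in Con, 14.3 to 16.4% in MPTP-Veh, 15.1 to 16.5% in MPTP-SU, 14.8 to 18.0% in MPTP-SU+S and 10.98 to 13.6% in MPTP-SU+T, so the groups low in Slc5a7 were also low in this share. Chat did not follow it, with r = 0.01 and rho = -0.06 (permutation p = 0.955 and 0.788, adjusted 0.989 and 0.894, r = -0.23 without the 2 farthest libraries). The marker lists of cortex and hippocampus and of pons and medulla also rose with Slc5a7 in the cord, with r = 0.73 and rho = 0.74 for the former (permutation p = 0.00019 and 0.00024, adjusted 0.00735 and 0.0116, r = 0.67 without the 2 farthest libraries) and r = 0.73 and rho = 0.67 for the latter (permutation p = 0.00018 and 0.00178, adjusted 0.00735 and 0.0418, r = 0.54 without the 2 farthest). The part of the mitochondrial share and of these regions in the Slc5a7 differences was not tested.

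**Figure D2:**
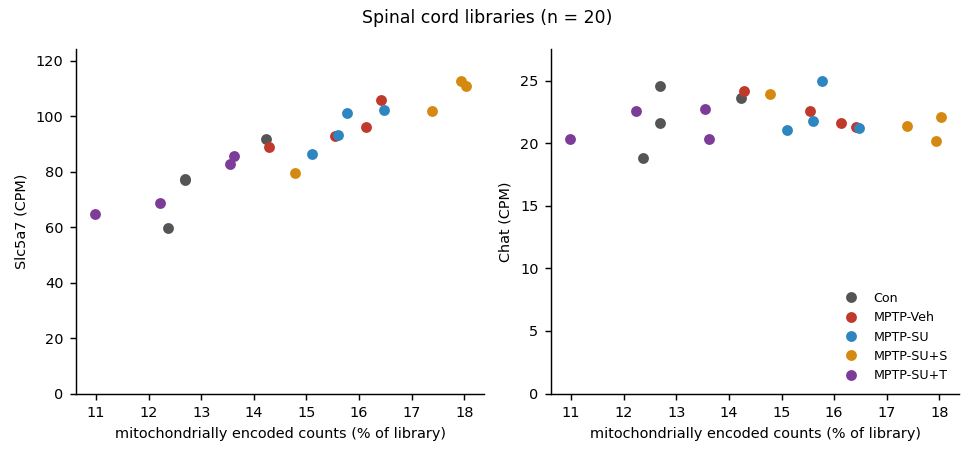
Levels of Slc5a7 (left) and Chat (right) in CPM against the percentage of mitochondrially encoded counts in the 20 spinal cord libraries, coloured by group, each point 1 library. Slc5a7 rose with the share from 59.6 to 113 CPM, while Chat stayed between 18.8 and 25.0 CPM.

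In the midbrain the genes of acetylcholine synthesis and transport varied more between libraries of the same group than between the group means. Con libraries held 4.15, 0.24, 1.14 and 2.21 CPM of Chat, MPTP-Veh libraries 5.13, 0.722, 2.24 and 3.55 CPM, MPTP-SU libraries 1.88, 0.274, 1.23 and 3.09 CPM, MPTP-SU+S libraries 6.51, 1.23, 0.398 and 0.568 CPM, and MPTP-SU+T libraries 0.596, 0.712, 3.47 and 3.60 CPM. The highest library was 27.2 times the lowest, while the group means lay between 1.62 and 2.91 CPM and all 5 groups overlapped. Slc18a3 ranged from 0.0648 to 8.70 CPM and Slc5a7 from 1.26 to 19.9 CPM. Their coefficients of variation were 83.2% for Chat, 116% for Slc18a3 and 76.4% for Slc5a7. None of the 3 was called in any of the 4 pairwise comparisons, and the adjusted p of any difference among the 5 groups was 0.941 for Chat, 0.590 for Slc18a3 and 0.970 for Slc5a7. The spread made these comparisons wide: the 95% interval of the log2 difference between MPTP-Veh and Con ran from -1.14 to 2.30 for Chat, from -0.76 to 3.60 for Slc18a3 and from -1.18 to 1.85 for Slc5a7.

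The same 3 genes rose and fell together from library to library. Between Chat and Slc18a3, r was 0.92 and rho 0.94 over 20 libraries (permutation p = 1e-05 for each, adjusted 0.00027 and 0.00081 over 81 relations in this tissue), with 0.91 without the 2 libraries farthest from the median of Chat and 0.93 once group means were removed. Between Chat and Slc5a7, r was 0.80 and rho 0.77 (permutation p = 4e-05 and 0.00013, adjusted 0.000648 and 0.00351), with 0.79 without the 2 farthest libraries and 0.91 without MPTP-Veh replicate 4. Between Slc18a3 and Slc5a7, r was 0.75 and rho 0.71 (permutation p = 0.0003 and 0.00067, adjusted 0.00283 and 0.00775), with 0.68 without the 2 farthest libraries and 0.94 without MPTP-Veh replicate 4. Ache moved with Chat and Slc18a3, with r = 0.55 and rho = 0.68 with Chat (permutation p = 0.00519 and 0.0011, adjusted 0.0221 and 0.0111, r = 0.42 without the 2 farthest) and r = 0.61 and rho = 0.65 with Slc18a3 (permutation p = 0.00073 and 0.00233, adjusted 0.00451 and 0.0157, r = 0.64 without the 2 farthest). It did not follow Slc5a7, with r = 0.03 and rho = 0.28 (permutation p = 0.902 and 0.236, adjusted 0.924 and 0.33, r = -0.13 without the 2 farthest and 0.47 without MPTP-Veh replicate 4). Of the other pairs of members 3 passed by r alone and not by rho. These were Chat with Prph (r = 0.54, rho = 0.52, permutation p = 0.0137 and 0.0201, adjusted 0.0427 and 0.0742, r = 0.55 without the 2 farthest), Ache with Prph (r = 0.69, rho = 0.43, permutation p = 0.00213 and 0.0566, adjusted 0.0115 and 0.139, r = 0.20 without the 2 farthest) and Ache with Isl1 (r = -0.54, rho = -0.33, permutation p = 0.0118 and 0.158, adjusted 0.0384 and 0.273, r = -0.33 without the 2 farthest and -0.22 once group means were removed). For the midbrain pairs with Chat or Slc18a3, the 2 farthest libraries were chosen by that gene and left MPTP-Veh replicate 4 in. For Ache with Prph and with Isl1 they were chosen by Ache and included that library. In the spinal cord Slc18a3 moved with Prph (r = 0.66, rho = 0.67, permutation p = 0.00209 and 0.0018, adjusted 0.0410 and 0.0418, r = 0.75 without the 2 farthest) and, by r alone, with Ache (r = 0.64, rho = 0.64, permutation p = 0.00212 and 0.00338, adjusted 0.0410 and 0.0506, r = 0.51 without the 2 farthest). There r between Chat and Slc18a3 was 0.24 and rho 0.25 (permutation p = 0.299 and 0.283, adjusted 0.620 and 0.552, r = 0.29 without the 2 farthest libraries). Isl1 did not follow Chat in the midbrain, with r = -0.37 and rho = -0.36 (permutation p = 0.11 and 0.12, adjusted 0.182 and 0.223, r = -0.33 without the 2 farthest libraries).

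Markers of other cells and regions moved with these genes. Of the lists of markers examined, that of dorsal root ganglion neurons (11 genes) had r = 0.81 and rho = 0.83 with Slc18a3 (permutation p = 2e-05 and 4e-05, adjusted 0.000405 and 0.00162, r = 0.86 without the 2 farthest libraries) and r = 0.73 and rho = 0.76 with Chat (permutation p = 0.00025 and 0.00024, adjusted 0.00283 and 0.00389, r = 0.69 without the 2 farthest). Its sum was 7.61 to 24.1 CPM in Con, 13.7 to 46.0 in MPTP-Veh, 14.5 to 22.1 in MPTP-SU, 11.5 to 19.1 in MPTP-SU+S and 10.7 to 25.5 in MPTP-SU+T. It was made up mainly of Pou4f1 (2.10 to 39.8 CPM), a transcription factor gene that the list of thalamus and habenula holds as well. None of the other 10 genes of the list exceeded 3.17 CPM. Mrgprd was at 0 in every midbrain library, Scn10a in 14 and Tlx3 in 11, whereas Avil (0.199 to 1.62 CPM), P2rx3 (0.698 to 3.17 CPM) and Drgx (0.589 to 2.80 CPM) were at 0 in none. The list of thalamus and habenula moved the other way, with r = -0.56 and rho = -0.61 with Slc18a3 (permutation p = 0.0116 and 0.00465, adjusted 0.0384 and 0.0235, r = -0.51 without the 2 farthest). The mitochondrial share also fell as Chat and Slc18a3 rose, with r = -0.58 and rho = -0.68 for Chat (permutation p = 0.00355 and 0.00143, adjusted 0.0180 and 0.0129, r = -0.58 without the 2 farthest) and r = -0.62 and rho = -0.63 for Slc18a3 (permutation p = 0.00078 and 0.00352, adjusted 0.00451 and 0.0190, r = -0.59 without the 2 farthest). Without MPTP-Veh replicate 4 these r were -0.69 and -0.61. Slc5a7 had r = -0.15 and rho = -0.40 with this share (permutation p = 0.542 and 0.0838, adjusted 0.659 and 0.174, r = -0.00041 without the 2 farthest), and r = -0.64 without MPTP-Veh replicate 4. Phox2a, which specifies oculomotor neurons, was at most 0.187 CPM. The part of the regions dissected and of the mitochondrial share in the levels of Chat, Slc18a3 and Slc5a7 was not tested.

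**Figure D3:**
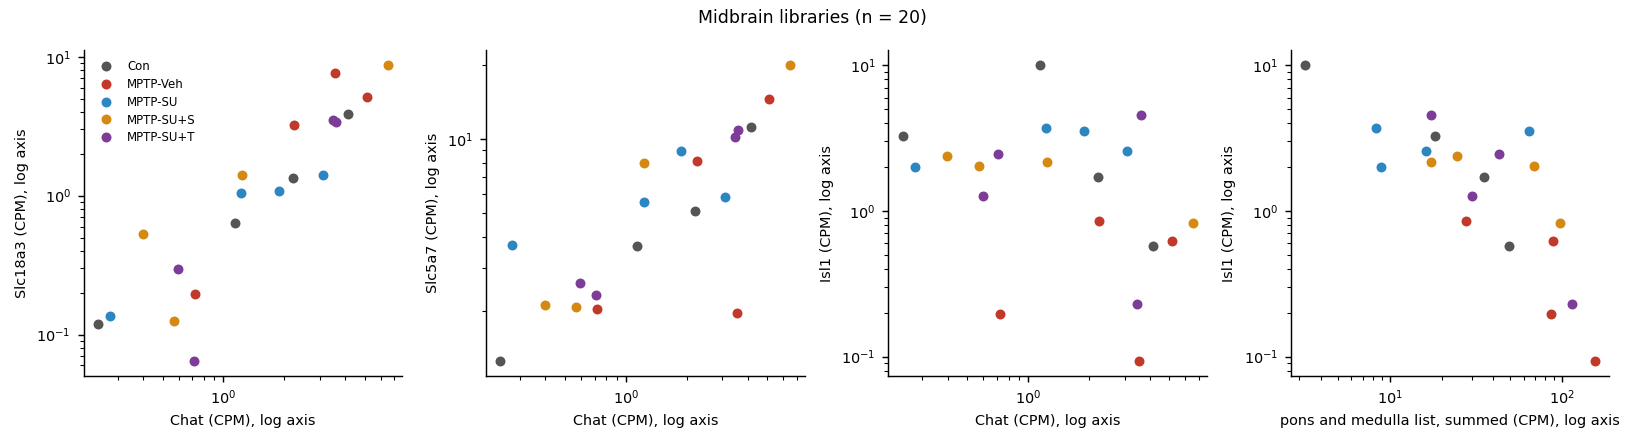
Levels of the members in the 20 midbrain libraries in CPM on log axes, coloured by group: Slc18a3, Slc5a7 and Isl1 against Chat, and Isl1 against the summed level of 12 marker genes of pons and medulla. Slc18a3 and Slc5a7 rose with Chat (r = 0.92 and 0.80), whereas Isl1 fell as the pons and medulla markers rose (r = -0.80).

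The MPTP lesion was addressed by MPTP-Veh against Con. None of the 6 members that passed the filter in the midbrain was called (Isl2 and Mnx1 did not pass), and 0.018% of all genes were called. An unadjusted p under 0.05 was found for 2 of the 6, Ache and Isl1, and for 23.7% of all genes. DESeq2 called 1 member, Isl1, and limma-voom called none. Isl1 was at 0.575, 3.29, 10.02 and 1.72 CPM in Con and at 0.622, 0.197, 0.847 and 0.0934 CPM in MPTP-Veh. The groups overlapped only at Con replicate 1, and the log2 difference was -3.06 (SE 0.84, adjusted p = 0.130). The difference was -2.01 (adjusted p = 0.213) without Con replicate 3, the library at 10.02 CPM, and it was called without MPTP-Veh replicate 3 (log2 -3.62, adjusted p = 0.0443), and the adjusted p over all alternatives ranged from 0.0116 to 0.492. The 4 libraries of MPTP-Veh held 26 counts of Isl1 in all. Ache was at 133, 116, 152 and 138 CPM in Con and at 159, 159.8, 152 and 340.2 CPM in MPTP-Veh, a log2 difference of 0.59 (SE 0.22, adjusted p = 0.138). Chat, Slc18a3, Slc5a7 and Prph had adjusted p between 0.421 and 0.795. Without MPTP-Veh replicate 4, the library at 340.2 CPM of Ache, the log2 difference was 0.22 for Ache (adjusted p = 0.541) and -2.79 for Isl1 (adjusted p = 0.212), and that of Prph turned from 0.50 to -0.16 (adjusted p = 0.914). The median log2 difference of the 6 members was 0.54 with this library and 0.34 without it, against 0.00 over all genes.

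SUEHP was addressed by MPTP-SU against MPTP-Veh, which shares the MPTP-Veh libraries with the comparison above. Of the 6 members tested in the midbrain 2 were called, Isl1 higher and Ache lower, against 13.5% of all genes (4.35% higher and 9.1% lower). Isl1 was at 3.57, 1.99, 3.73 and 2.58 CPM in MPTP-SU, and every MPTP-SU library lay above every MPTP-Veh library. Its mean was 2.97 ± 0.83 CPM against 0.44 ± 0.35 CPM (SD, n = 4 each), with a log2 fold change of 2.67 (SE 0.84, edgeR adjusted p = 0.0354). The separation alone fixes the exact two-sided permutation p at 0.0286. Ache was at 114, 99.7, 142 and 147 CPM in MPTP-SU, all below the 152 to 340.2 CPM of MPTP-Veh. Its mean was 126 ± 22.8 CPM against 203 ± 91.6 CPM (SD, n = 4 each), with a log2 fold change of -0.70 (SE 0.22, edgeR adjusted p = 0.0333). Here too the separation fixes the exact two-sided permutation p at 0.0286. Prph was at 4.98, 1.51, 1.81 and 5.08 CPM in MPTP-SU and at 4.98, 4.00, 5.56 and 16.3 CPM in MPTP-Veh, a log2 difference of -1.21 (SE 0.45, adjusted p = 0.0630) that was not called. Chat (log2 -0.84, adjusted p = 0.490), Slc18a3 (-2.12, 0.179) and Slc5a7 (-0.16, 0.896) were not called. The median log2 difference of the 6 members was -0.77, and -0.50 without MPTP-Veh replicate 4, against 0.00 over all genes.

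Neither call held when single libraries were left out. Without MPTP-Veh replicate 4, the library with few mitochondrial counts, the log2 difference was 2.40 for Isl1 (adjusted p = 0.0761), -0.32 for Ache (adjusted p = 0.115) and -0.55 for Prph (adjusted p = 0.366), and no member was called. The call of Ache was also lost without MPTP-SU replicate 1, 2 or 3 (log2 -0.65, -0.60 and -0.76, adjusted p = 0.0807, 0.103 and 0.0537), and that of Isl1 without the same 3 libraries (log2 2.58, 2.82 and 2.54, adjusted p = 0.0700, 0.0626 and 0.0704) and without MPTP-Veh replicate 2 (log2 2.41, adjusted p = 0.0594). Prph was called without MPTP-Veh replicate 1, 2 or 3 (log2 -1.36, -1.42 and -1.33, adjusted p = 0.0474, 0.0330 and 0.0468). The sign of each difference was the same in every fit. Over the other alternatives the adjusted p ranged from 0.0057 to 0.216 for Isl1, from 0.0131 to 0.232 for Ache and from 0.0333 to 0.253 for Prph. Limma-voom and the fit of only the groups compared each called no member, and DESeq2 called 3.

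**Figure D4:**
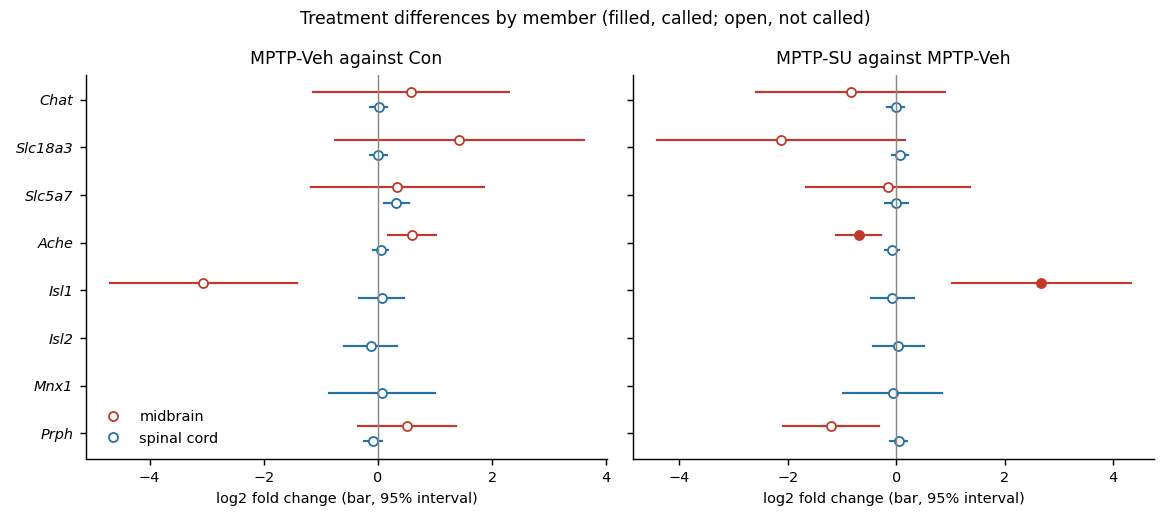
Log2 fold changes of the members with 95% intervals for MPTP-Veh against Con (left) and MPTP-SU against MPTP-Veh (right) in the midbrain and the spinal cord, filled where called. Isl1 (2.67) and Ache (-0.70) in the midbrain were the called members, and the intervals of Chat, Slc18a3 and Slc5a7 were far wider in the midbrain than in the cord.

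Marker lists moved with Isl1, Ache and Prph in the midbrain. The list of pons and medulla (12 genes, none of them at 0 in all libraries) summed to 49.6, 18.3, 3.23 and 35.1 CPM in Con, 89.0, 86.2, 27.8 and 155 CPM in MPTP-Veh and 64.5, 8.91, 8.29 and 16.2 CPM in MPTP-SU. It summed to 17.3 to 97.5 CPM in MPTP-SU+S and to 17.4 to 114 CPM in MPTP-SU+T. Its r with Isl1 was -0.80 and rho -0.75 over 20 libraries (permutation p = 1e-05 and 0.0002, adjusted 0.00027 and 0.00389), with -0.75 without the 2 farthest libraries and -0.73 once group means were removed. The Con library highest in Isl1, at 10.02 CPM, was the lowest of the 20 in this list. The list of thalamus and habenula (10 genes, none at 0 in all libraries) had r = 0.56 and rho = 0.66 with Isl1 (permutation p = 0.0103 and 0.00208, adjusted 0.0384 and 0.0153, r = 0.58 without the 2 farthest and 0.58 once group means were removed), and its sum was 370.2 to 624 CPM in Con, 318 to 795 in MPTP-Veh, 543 to 1348 in MPTP-SU, 399.9 to 1172 in MPTP-SU+S and 379 to 1669 in MPTP-SU+T. Ache had r = 0.91 and rho = 0.64 with the list of skeletal muscle (permutation p = 1e-05 and 0.00297, adjusted 0.00027 and 0.0185, r = 0.63 without the 2 farthest and 0.72 without MPTP-Veh replicate 4). That list (10 genes, none at 0 in all libraries) summed to 469 CPM in MPTP-Veh replicate 4 and to 79.6 to 99.1 CPM in the other 3 of that group, against 61.1 to 76.0 CPM in Con, 52.7 to 73.8 CPM in MPTP-SU, 62.3 to 79.4 CPM in MPTP-SU+S and 65.1 to 73.9 CPM in MPTP-SU+T. Its main gene there was Pvalb (453 CPM against 47.9 to 94.7 CPM in the other 19 midbrain libraries), which neurons also express. Of the 10 genes 6 were highest in that library, among them Acta1 (7.01 CPM against 1.03 to 3.32 CPM) and Actn3 (4.30 against 0.745 to 3.26 CPM), whereas the muscle myosin genes Myh1, Myh2 and Myh4 and the troponin gene Tnnt3 were not. Ache fell as the mitochondrial share rose, with r = -0.82 and rho = -0.63 (permutation p = 0.00071 and 0.00324, adjusted 0.00451 and 0.0187, r = -0.56 without the 2 farthest and -0.48 without MPTP-Veh replicate 4). It also fell as the list of Schwann cells and spinal roots (8 genes, mainly Cdh19) rose, with r = -0.78 and rho = -0.72 (permutation p = 0.00035 and 0.00061, adjusted 0.00283 and 0.00775, r = -0.52 without the 2 farthest and -0.55 without MPTP-Veh replicate 4). The sum of that list was 14.2 to 23.6 CPM in MPTP-Veh, 22.4 to 32.6 in Con, 30.7 to 36.0 in MPTP-SU, 27.5 to 36.8 in MPTP-SU+S and 22.95 to 40.2 in MPTP-SU+T. Isl1 fell as the list of skeletal muscle rose, with r = -0.60 and rho = -0.58 (permutation p = 0.00058 and 0.00882, adjusted 0.00427 and 0.0376, r = -0.47 without the 2 farthest and -0.33 once group means were removed). Prph fell as the lists of Schwann cells and spinal roots (r = -0.77 and rho = -0.61, permutation p = 0.00016 and 0.00518, adjusted 0.00216 and 0.0247, r = -0.58 without the 2 farthest and -0.60 once group means were removed) and of thalamus and habenula rose (r = -0.71 and rho = -0.65, permutation p = 0.00034 and 0.00202, adjusted 0.00283 and 0.0153, r = -0.63 without the 2 farthest and -0.57 once group means were removed). The part of these regions, these cells and the mitochondrial share in the differences of Isl1, Ache and Prph was not tested.

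The CB1 antagonist and the PPARγ inhibitor were addressed by MPTP-SU+S and MPTP-SU+T against MPTP-SU, which share the MPTP-SU libraries. In the midbrain no member was called in either comparison by edgeR, DESeq2 or limma-voom, and 0% of all genes were called. No member had an unadjusted p under 0.05, as 1.65 and 1.7% of all genes had. Isl1 was at 0.822, 2.16, 2.39 and 2.02 CPM in MPTP-SU+S and at 1.27, 2.46, 0.228 and 4.57 CPM in MPTP-SU+T. Both groups overlapped MPTP-SU, with log2 differences of -0.68 (95% interval -2.09 to 0.73) and -0.47 (-1.86 to 0.92). Ache was at 168, 139, 132 and 134 CPM and at 118, 137, 161 and 164 CPM, with log2 differences of 0.19 (-0.23 to 0.61) and 0.20 (-0.22 to 0.63). Prph was at 1.59 to 5.21 CPM and at 2.16 to 3.70 CPM, with log2 differences of 0.06 (-0.84 to 0.96) and -0.19 (-1.1 to 0.72). In the test of any difference among the 5 midbrain groups none of the 6 members was called, against 7.1% of all genes, while 3 (Ache, Isl1 and Prph) and 27.9% of all genes had an unadjusted p under 0.05. The adjusted p of these 3 were 0.142, 0.124 and 0.129 (0.413, 0.187 and 0.263 without MPTP-Veh replicate 4). DESeq2 called 2 members and limma-voom 1 in this test.

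Whether the tissues differed in their response was tested by the interaction of treatment and tissue. Mnx1, at 0 in every midbrain library, and Isl2 had no midbrain response that could be measured. For MPTP-Veh against Con 1 of the other 6 members was called, Isl1, against 2.45% of all genes. Isl1 had a log2 difference of -3.06 for the midbrain and 0.07 for the cord, so that the cord effect minus the midbrain effect was 3.13 (SE 0.83, adjusted p = 0.0452). That call held in 8 of 24 alternatives. It was lost, at adjusted p of 0.0545 to 0.113, without Con midbrain replicate 2, 3 or 4, MPTP-Veh midbrain replicate 4, Con spinal cord replicate 1, 3 or 4, or any MPTP-Veh spinal cord library, where the difference was 2.06 without Con midbrain replicate 3 and 2.85 to 3.36 without each of the others. The fits with library size alone, no filter, limma-voom, the replicate block and only the groups compared lost it as well. For MPTP-SU against MPTP-Veh 2 of these 6 were called, Isl1 and Prph, against 12.1% of all genes. The cord effect minus the midbrain effect was -2.74 for Isl1 (SE 0.84, adjusted p = 0.0247), whose difference in the spinal cord alone was -0.07. It held in 23 of 24 alternatives and was lost without MPTP-Veh midbrain replicate 4 (-2.49, adjusted p = 0.0506). For Prph it was 1.23 (SE 0.42, adjusted p = 0.0418) and held in 10 of 24 alternatives, with 0.59 (adjusted p = 0.252) without MPTP-Veh midbrain replicate 4. That call was also lost, at 1.00 to 1.26 and adjusted p of 0.0512 to 0.11, without MPTP-SU midbrain replicate 2 or 3, any MPTP-Veh spinal cord library, or MPTP-SU spinal cord replicate 2, 3 or 4. The fits with no filter, limma-voom, the replicate block and only the groups compared did not call Prph either. Ache (0.60, adjusted p = 0.0622) and Slc18a3 (2.14, adjusted p = 0.115) were not called. For MPTP-SU+S and MPTP-SU+T against MPTP-SU no member was called by edgeR, DESeq2 or limma-voom, and 0% of all genes were called in each. No member had an unadjusted p under 0.05, as 2.18 and 2.46% of all genes had.

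Genes that act beside the members were read from 5 lists. Acetylcholine metabolism beyond the members (16 genes, 14 tested in the midbrain) had 2 genes called in MPTP-SU against MPTP-Veh in the midbrain, where 13.5% of all genes were called. Bche, a second cholinesterase, rose from 6.34 ± 2.26 to 10.2 ± 1.78 CPM (log2 0.67, SE 0.22, adjusted p = 0.0393). Colq, the collagen tail that anchors acetylcholinesterase, fell from 2.59 ± 1.73 to 1.104 ± 0.42 CPM (log2 -1.21, SE 0.39, adjusted p = 0.0387). Of the 27 effector and subtype genes of adult motor neurons 6 were called there, 2 higher and 4 lower, among them the neurofilament genes Nefm (log2 -1.51, SE 0.30, adjusted p = 0.0074) and Nefh (log2 -0.86, SE 0.17, adjusted p = 0.00625). Of the motor neuron transcription factors beside the members 3 of 18 were called, Etv1 higher (log2 0.74, adjusted p = 0.0243) and Nkx6-1 and Pou3f1 lower (log2 -1.57 and -1.28, adjusted p = 0.0260 and 0.0445). Pou3f1 in MPTP-Veh ranged from 8.77 to 57.5 CPM and Nefm from 765 to 2490.2 CPM, while their MPTP-SU means were 9.41 and 451 CPM. Without MPTP-Veh replicate 4, Nefm (log2 -0.95) and Nefh (-0.77) were still called, whereas Bche (0.45, adjusted p = 0.0539), Colq (-0.68, 0.184), Etv1 (0.55, 0.0347, a fold change under 1.5), Nkx6-1 (-0.80, 0.128) and Pou3f1 (-0.28, 0.459) were not. These 5 calls were also lost without MPTP-SU replicate 2 or 3, and those of Colq and Pou3f1 without any 1 of the 4 MPTP-SU libraries, that of Bche without MPTP-SU replicate 1 as well. Without MPTP-SU replicate 2 and 3, log2 was 0.73 and 0.68 for Bche, -0.96 and -1.34 for Colq, and 0.66 and 0.72 for Etv1. It was -1.36 and -1.56 for Nkx6-1, and -1.23 and -1.35 for Pou3f1. The medians of these 3 lists were -0.14, -0.41 and -0.11, against 0.00 over all genes. In MPTP-Veh against Con in the midbrain no gene of the 5 lists was called by edgeR, with 5, 2, 4, 5 and 11 genes of the lists of metabolism, muscarinic receptors, nicotinic receptors, transcription factors and effectors at an unadjusted p under 0.05, as 23.7% of all genes were.

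The receptors for acetylcholine were read in the same way. No muscarinic receptor gene was called in MPTP-SU against MPTP-Veh, with 2 of 5 at an unadjusted p under 0.05 as 39.8% of all genes were, and 2 of 15 nicotinic subunit and modulator genes were called, both higher, against 13.5% of all genes. These were Lypd6, a modulator of nicotinic receptors, which rose from 17.2 ± 5.69 to 35.3 ± 6.05 CPM (log2 1.03, SE 0.25, adjusted p = 0.0157), and Chrnb4, a subunit gene, which rose from 0.754 ± 0.65 to 4.21 ± 3.54 CPM (log2 2.39, SE 0.82, adjusted p = 0.0474). Without MPTP-SU replicate 2 neither was called, with an adjusted p of at most 0.0551 for Lypd6 over the libraries left out in turn. The call of Chrnb4 was also lost on leaving out replicate 1 or 4 of MPTP-Veh, or 3 or 4 of MPTP-SU (log2 1.81 to 2.93 and adjusted p = 0.0340 to 0.124 over the libraries left out in turn). Across all 5 midbrain groups, where 7.1% of all genes were called, Chrm1 and Chrm4 were called (adjusted p = 0.00198 and 0.0275). Chrm1 averaged 33.2 ± 15.4 CPM in Con and 6.35 to 9.10 CPM in the 4 MPTP groups. The marker list of cortex and hippocampus (10 genes) moved with it, with a mean sum of 389 CPM in Con and of 128 to 193 CPM in the MPTP groups, and its part in the Chrm1 difference was not tested. Chrna2, Chrna5 and Chrnb4 were called in the same test, and Chrm1 and Chrna2 were so in all 26 alternatives, Chrnb4 in 9. Chrm4 was not called without Con replicate 1 or 2 (adjusted p up to 0.110), nor Chrna5 without Con replicate 2 or 3 or MPTP-SU+T replicate 2 (up to 0.0622). Chrna2 averaged 0.266 ± 0.21 CPM in Con and 1.41 to 3.77 CPM in the MPTP groups. Between the tissues in Con, Chrm1 (log2 -4.73), Chrnb3 (-4.84) and Chrna6 (-5.08), the last 2 being subunits of nicotinic receptors on dopaminergic neurons, were lower in the spinal cord, and Chrna2 (3.28) was higher. Among the other lists, where 16.4% of all genes were called, 13 of the 16 called effector genes of 27 were higher in the cord, as Chodl (log2 4.48), a marker of fast motor neurons, and Nefh (2.28) were, and all 4 called transcription factors, Lhx4 (3.45) among them, were higher. In the spinal cord the treatments left 1 gene of the 5 lists called, Calca, the calcitonin gene-related peptide of motor and sensory neurons, which averaged 17.8 ± 4.09 CPM in MPTP-SU and 10.96 ± 0.73 CPM in MPTP-SU+T (log2 -0.70, SE 0.12, adjusted p = 0.0313). Calca was still called without MPTP-SU replicate 4, and its adjusted p reached 0.180 and the call was lost without each of the other 7 libraries in turn, at log2 -0.74 to -0.53. The smallest of these, -0.53, was without MPTP-SU replicate 2, the library highest in Calca (23.8 CPM) and in the list of dorsal root ganglion neurons (57.4 CPM against 29.1 to 34.1 CPM in the other 3 of the group and 30.2 to 43.7 CPM in MPTP-SU+T), with Avil at 5.83 CPM and Scn10a at 5.21 CPM. The part of sensory neurons in the Calca difference was not tested.

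For Chat, Isl1 and Prph the 3 genes of highest Pearson r over the 20 libraries of a tissue were listed as a description. In the midbrain the pattern of Chat was most like those of its locus partner Slc18a3 (r = 0.92), Mapk8ip3 (0.83) and Slc5a7 (0.80), so that both of the other genes of acetylcholine synthesis and transport were among the first 3 of 16629 genes. Isl1 came nearest to Qrfpr (0.86), Mtmr4 (0.82) and Cntnap3 (0.82), and Prph to Nucb1 (0.89), Kri1 (0.89) and Tle3 (0.88). In the spinal cord the nearest genes to Prph were the neurofilament gene Nefm (0.82), Igflr1 (0.82) and Serf2 (0.81). Those to Chat were Fam161b (0.77), Sirt2 (0.74) and Adam19 (0.73), with no other member among them, and those to Isl1 were Rprml (0.79), Bmal1 (0.76) and Fam98a (0.74).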

How the data were processed

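Total RNA of midbrain and spinal cord was made into poly(A) libraries (CORALL RNA-Seq V2) by the authors, sequenced in pairs, trimmed with fastp, aligned with STAR and quantified with Salmon on GRCm39. GATK is named in the submitters' processing notes without a role, and versions are not given in the sources used here. The deposited values were estimated counts per gene symbol, given as whole numbers, with values of 1000000 and more rounded to 6 significant digits. Groups came from the labels.

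Genes were filtered with filterByExpr, scaled by TMM and tested with the quasi-likelihood F test of edgeR 4.0.16 (R 4.3.3) in the 20 libraries of a tissue (16629 genes in midbrain, 16682 in spinal cord), or in all 40 (17426 genes) for tissue differences and interactions, without replicate block, in 16 comparisons. A gene was called at a Benjamini-Hochberg adjusted p under 0.05 and a fold change over 1.5, and in the test of any difference by the adjusted p alone. CPM was computed on 1 TMM scale over 40 libraries. Correlations used log2 CPM (prior count 2) for genes and log2 of the summed CPM plus 0.1 for marker lists. The mitochondrial share entered as a percentage. Their p-values came from 100000 permutations (NumPy 2.4.6), and the exact tests of 4 against 4 libraries from SciPy 1.17.1. Intervals of ratios are exact and, like floors, cover counting error only.

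Alternatives were DESeq2 1.42.0, limma-voom (limma 3.58.1) with sample weights, RLE and library-size scaling, no filter, only the groups compared, a replicate block, no fold threshold and each library left out. The script was tested on simulated data. Of the genes beside the members, the text names at most the 3 with the smallest p of a list in a comparison, and the 3 nearest genes by r. The members and lists were chosen with earlier results of these data known. No protein sequences were used here.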

Additional observations from a re-analysis of the deposited data

Results flagged for a closer look

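In 8 of 74 groups of 4 libraries, 1 library lay farther from the other 3 than Dixon's 95% critical value allows. For independent values with a normal distribution, chance does so in about 1 of 20 groups. The CPM used here were not checked for that distribution, and members that move together are not independent. The 8 of 74 can therefore not be set against that rate. In MPTP-SU+S midbrain replicate 1, Chat was 6.51 CPM against 0.398 to 1.23 CPM and Slc18a3 was 8.70 CPM against 0.126 to 1.42 CPM in the other libraries of the group, so both genes of the locus were high in the same library. In MPTP-Veh midbrain replicate 4, the library with few mitochondrial counts, Ache was 340.2 CPM against 152 to 159.8 CPM and Prph was 16.3 CPM against 4.00 to 5.56 CPM. In MPTP-Veh midbrain replicate 3, Isl2 was 0.181 CPM and 0 in the other 3, a level of 3 counts. Any group in which only 1 library has counts passes Dixon's value by construction. In the spinal cord, Slc18a3 was 39.0 CPM in MPTP-SU replicate 1 against 44.4 to 45.0 CPM, and 45.7 CPM in MPTP-SU+T replicate 3 against 38.5 to 39.6 CPM, both within the range of the other groups. Isl1 was 3.95 CPM in MPTP-SU spinal cord replicate 2 against 2.94 to 2.97 CPM.

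By the interaction test of edgeR 3 responses passed the threshold between the tissues, and each was lost without MPTP-Veh midbrain replicate 4. For MPTP-Veh against Con the spinal cord effect of Isl1 exceeded its midbrain effect by 3.13 on the log2 scale, and for MPTP-SU against MPTP-Veh the difference was -2.74 for Isl1 and 1.23 for Prph, both comparisons resting on the same MPTP-Veh libraries. Without that library the values were 2.85, -2.49 and 0.59 (adjusted p = 0.0672, 0.0506 and 0.252), and the calls held in 8, 23 and 10 of 24 alternatives.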

How the results depend on the processing

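Over 2418 values of single members under alternatives, 2219 kept direction and side of the threshold, 46 lost a call, 23 gained one, 130 changed sign while not called, and no called value reversed. These values include Isl2 and Mnx1 between the tissues, whose direction the filter fixed. They also include the tests of any difference, which have no direction, so only the side of the threshold could change there. The 2219 thus hold values whose direction was fixed in advance. With DESeq2 the members called became 1 in MPTP-Veh against Con and 2 in any difference among the midbrain groups, from 0 in each, and 3 in MPTP-SU against MPTP-Veh (main count 2). DESeq2 gave no adjusted p for Slc18a3 between the tissues, leaving 3 of the 6 members tested in both tissues called in Con and 4 over the 5 treatments (main counts 4 and 5). With limma-voom they became 0 in midbrain MPTP-SU against MPTP-Veh (main count 2) and 1 in any midbrain difference. In the fit of only the groups compared, MPTP-SU against MPTP-Veh gave 0. In any spinal cord difference (0), the fits with no filter, limma-voom, DESeq2 and the replicate block each gave 1, Slc5a7. For the tissue interaction of MPTP-Veh against Con (1), library size alone, no filter, limma-voom, the replicate block and only the groups compared each gave 0. For that of MPTP-SU against MPTP-Veh (2), no filter, limma-voom, the replicate block and only the groups compared each gave 1. The cause of these changes was not tested. Leaving out each library in turn gave 0 to 1 in midbrain MPTP-Veh against Con, 0 to 3 in MPTP-SU against MPTP-Veh, 0 to 2 in any spinal cord difference, 4 in Con tissue and 4 to 5 in tissue over the 5 treatments (of the same 6 members), 0 to 2 and 0 to 4 in the 2 interactions, and 0 in all others. The replicate block moved no other count of members by over 1.5 times. Same-numbered libraries of compared groups correlated at -0.11 to 0.29 and the 2 tissues at -0.19 to 0.34 (4 of 20 over 0.1), and since not every pair was over 0.1 the numbers were not taken as pairs. Of the 20 libraries 12 correlated best with their own number in the other tissue, a hint of shared numbers in the data that the labels do not state. Depth limits Isl2 and Mnx1 in the midbrain, with 11 and 0 counts, and Isl1 in MPTP-Veh, with 26.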
